A study of Mus musculus with 10 samples.

Results

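The microRNA (miRNA) processing and Argonaute machinery was followed here as 10 genes, Drosha, Dgcr8, Xpo5, Dicer1, Ago1, Ago2, Ago3, Tnrc6a, Tnrc6b and Tnrc6c, in mouse leukemia cells in which a single miRNA, miR-139, can be switched on. The genes were taken by symbol through their Ensembl identifiers from a count table of 52550 genes, and all 10 were measured, with between 18732 (Ago1) and 218140 (Ago2) reads summed over 10 libraries. The question was how much of this machinery the cells hold at rest and whether its level moves when a miRNA is induced. The cells are hematopoietic stem and progenitor cells (HSPCs) from wild type C57BL/6 mice aged 8 to 20 weeks, transformed with a retrovirus for the fusion oncogene MLL-AF9 (neomycin or puromycin selection), which all groups carry. For MLL-AF9-i139 cells the repressor tetR-KRAB (hygromycin selection) and a pCW lentiviral vector (puromycin selection) from which doxycycline (DOX) switches on miR-139 were added, and lines were expanded from picked colonies. MLL-AF9-ieGFP cells carry an inducible eGFP vector, and the sources used here do not spell out whether they also carry tetR-KRAB. There were 4 groups. MLL-AF9-i139 clones 1, 2 and 3 were sequenced once without DOX and once with DOX at 5 µg/mL, for 48 h in clones 1 and 2 and for 72 h in clone 3, and the labels give no time for the untreated i139 cultures. MLL-AF9-ieGFP is 1 clone, sequenced at 48 h and at 72 h without DOX and with DOX at 5 µg/mL. Its 2 libraries in a group are therefore time points and not clones.

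A miRNA is transcribed as a long hairpin-bearing RNA, which the Microprocessor, built from the nuclease DROSHA and its RNA-binding partner DGCR8, cuts to a short hairpin in the nucleus. XPO5 carries that hairpin to the cytoplasm, where DICER1 trims it to a duplex. One strand is loaded into an Argonaute protein (AGO), which finds mRNAs through the seed of the miRNA, its bases 2 to 8, and recruits a TNRC6 (GW182) scaffold that brings in deadenylases and decapping factors. AGO2 is the Argonaute of this set best known for cutting its target itself.

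The RNA that the machinery was asked to process comes from the Mir139 hairpin on chromosome 7 and yields an arm from each side. Both mature sequences (RefSeq, GRCm38.p6, plus strand) are shown because their seeds, in capitals, were searched for in the 3′ UTRs of the machinery itself. The 5p arm lies at chr7:101475382-101475403 and the 3p arm at chr7:101475418-101475439.
miR-139-5p: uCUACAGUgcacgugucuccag
miR-139-3p: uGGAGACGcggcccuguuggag

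Total counts ranged from 35133308 to 47089725 a library. Values below are CPM, the count of a gene scaled to the size of its library after TMM normalization. The summed levels of the marker lists are the exception, as they are scaled to library size without TMM. Nothing in the labels says that libraries of a group came from separate animals, so p-values measure the spread between these clones or cultures. The induction itself could not be checked in these counts: Mir139 had 0 counts in all 10 libraries, as had 655 of 661 protein-coding genes that lie wholly inside another gene without sharing an exon base, against 24.5% of 12012 protein-coding genes outside other genes. This pattern would arise if whole gene bodies, introns included, had been counted and reads in more than 1 gene dropped, but the counting setting is not stated, so levels per length are given on more than 1 length. The myeloid progenitor markers fixed for the label were all 7 detected, with summed levels of 1197 to 1330 CPM in the 5 untreated libraries, and 1 each of 3 lymphoid, 3 erythroid or megakaryocyte and 2 stromal markers passed 10 counts, at summed levels of at most 2.42 CPM in every library. With DOX the progenitor list summed to 2290 to 2489 CPM in i139 and to 1411 to 1570 CPM in ieGFP. Most of this was Mpo, a granule enzyme gene, at 536 ± 107 CPM (SD, n = 3) without and 1407 ± 229 CPM with DOX in i139, a log2 fold change of 1.40 ± 0.18 (SE, adjusted p = 0.0579, and 0.00955 with clone as a block, edgeR). In ieGFP Mpo went from 524 and 642 CPM to 705 and 927 CPM, a log2 fold change of 0.49 ± 0.21 (SE, unadjusted p = 0.0422, adjusted p = 1, edgeR). None of the 7 passed without the block in i139, and they did not share a direction: Kit was at 0.03, Meis1 at -0.16 and Hoxa9 at -0.35 on the log2 scale (adjusted p = 0.918, 0.437 and 0.213, edgeR), and with the block 3 rose and 1, Hoxa9, fell (adjusted p = 0.0428). In the list of mature neutrophil and macrophage markers, Itgam had 6 counts in all. Of its gene body, 99.9% lies inside other genes, where reads may have been dropped, so this count cannot show whether Itgam was expressed. The list of mature markers summed in ieGFP to between 9.71 and 9.75 CPM without DOX and between 10.2 and 10.4 CPM with it. In i139 it summed to between 5.65 and 12.5 CPM without DOX and between 10.3 and 64.9 CPM with it. The chemokine receptor gene Cxcr2 stood at 0.889 to 1.35 CPM in the untreated i139 libraries, and at 41.6, 22.8 and 2.67 CPM in DOX-treated clones 1, 2 and 3. Its log2 fold change was 4.42 ± 0.86 (SE, adjusted p = 0.0955, and 0.0219 with the block, edgeR). For Ly6g, Ltf, Adgre1 and Csf1r the i139 groups with and without DOX overlapped, and of these only Csf1r passed with the block (adjusted p = 0.0278, edgeR). The part of these marker differences in the values of the machinery genes was not tested. In bulk RNA, fewer cells of a type and less RNA per cell cannot be told apart.

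In untreated cells, compared per kilobase of annotated exon, Ago2 stood highest and Ago3 lowest. Over the 5 untreated libraries Ago2 averaged 38.7 ± 1.64 CPM per kb (SD, n = 5). This is above 92.8% of the 14652 protein-coding genes with at least 10 counts in total, so genes with fewer counts are left out. Drosha at 32.2 ± 1.36 and Xpo5 at 31.3 ± 1.6 CPM per kb followed, and their ranges overlapped. Tnrc6b (17.1 ± 1.6) overlapped with Dgcr8 (15.5 ± 0.414), and Tnrc6c (± 0.188) overlapped with Dicer1 (± 0.319), both at a mean of 13. The other neighbours in the order did not overlap: Tnrc6a averaged 10.3 ± 0.507, Ago1 5.40 ± 0.347 and Ago3 2.88 ± 0.357 CPM per kb. Ago3 thus stood above 46.4% of those 14652 protein-coding genes on this scale.

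The choice of length changed the order in the middle and left both ends in place. Per kilobase of gene body that lies in no other gene, Ago2 remained first at 5.80 to 6.51 CPM per kb and Ago3 last at 0.402 to 0.570 CPM per kb. Drosha, whose gene body is 18.6 times its exon length, went from the second place to the seventh, and Tnrc6a went from the eighth to the third. For Tnrc6a, 64.1% of the gene body lies inside the annotated long non-coding gene Gm45846, and reads there may have been dropped. On exon, whole-body and unshared-body length alike, Drosha lay above Tnrc6c and Tnrc6a above Ago1 without overlap, while the places of Drosha and Tnrc6a among the other middle genes depended on the length.

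**Figure D1:**
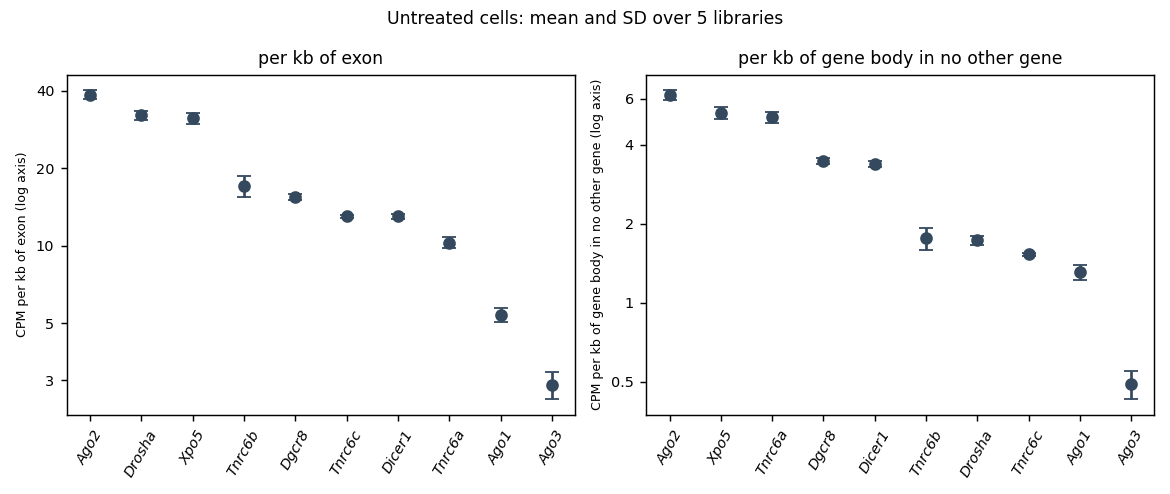
Mean and SD over the 5 untreated libraries of the level of each gene on a log axis, in CPM per kilobase of exon (left) and per kilobase of gene body in no other gene (right). Ago2 was first and Ago3 last on both scales, while Drosha and Tnrc6a changed places with other genes.

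The gene bodies lie on GRCm38 at chr15:12824815-12935291 (Drosha, plus strand), chr16:18253948-18289246 (Dgcr8, minus), chr17:46202782-46243598 (Xpo5, plus), chr12:104687742-104751952 (Dicer1, minus), chr4:126435012-126468583 (Ago1, minus), chr15:73095844-73184935 (Ago2, minus), chr4:126331704-126429556 (Ago3, minus), chr7:123123885-123195296 (Tnrc6a, plus), chr15:80711313-80941085 (Tnrc6b, plus) and chr11:117654289-117763439 (Tnrc6c, plus). Besides Tnrc6a, whose body lies largely inside Gm45846, Dgcr8 shares most with other genes, with 12.9% of its exon bases inside exons of other genes, mainly Trmt2a on the other strand, and 14.98% of its 50-base stretches found in transcripts of other genes. For Ago2 the share of 50-base stretches found elsewhere was 3.46%, for Ago1 1.53%, and for the other 7 genes under 1%. Ago1 shares such stretches only with Ago2 and Ago3, and the Tnrc6 genes share none with each other.

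With DOX in MLL-AF9-i139 cells, the genes of the first steps stood lower and the scaffold gene Tnrc6b stood higher, mostly in clones 1 and 2. None of the 10 genes passed the test over the 3 clones that leaves out the pairing by clone. That test was edgeR's quasi-likelihood test of 3 against 3 libraries with Benjamini-Hochberg adjustment over 19223 genes. Of these, 0.0624% had an adjusted p under 0.05 (12 genes). At an unadjusted p under 0.05 there were 4 of the 10 genes (Drosha, Dgcr8, Xpo5, Tnrc6b), against 20.6% of all genes. In the same fit with the clone as a block, 2 of 10 genes passed against 12.4% of all genes (2381): Tnrc6b rose, as did 7.05% of all genes, and Xpo5 fell, as did 5.33%. DESeq2 without the block called Tnrc6b alone, against 12.1% of all genes tested, as did edgeR on all 10 libraries, against 6.09%. DESeq2 with the block called the same 2 genes as edgeR with it, against 23.6% of all genes. Without clone 3, whose DOX treatment was 72 h, 4 of 10 genes passed against 21.7% of all genes: Tnrc6b rose, as did 11.6% of all genes, and Drosha, Dgcr8 and Xpo5 fell, as did 10.1%. Without clone 1 or clone 2 none of the 10 passed, against 0.00555% and 0% of all genes (1.8% and 3.17% with the block). None passed with RLE factors, with no filter or with at least 10 counts in every library, against 0.0416%, 2.17% and 0.0148% of all genes. In each of these fits the share of the 10 genes that passed lay within 2 genes of the share of all genes. The median change of the 10 genes was -0.10 on the log2 scale, against 0.01 for all genes tested, with 2 genes above 0 and 8 below.

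**Figure D2:**
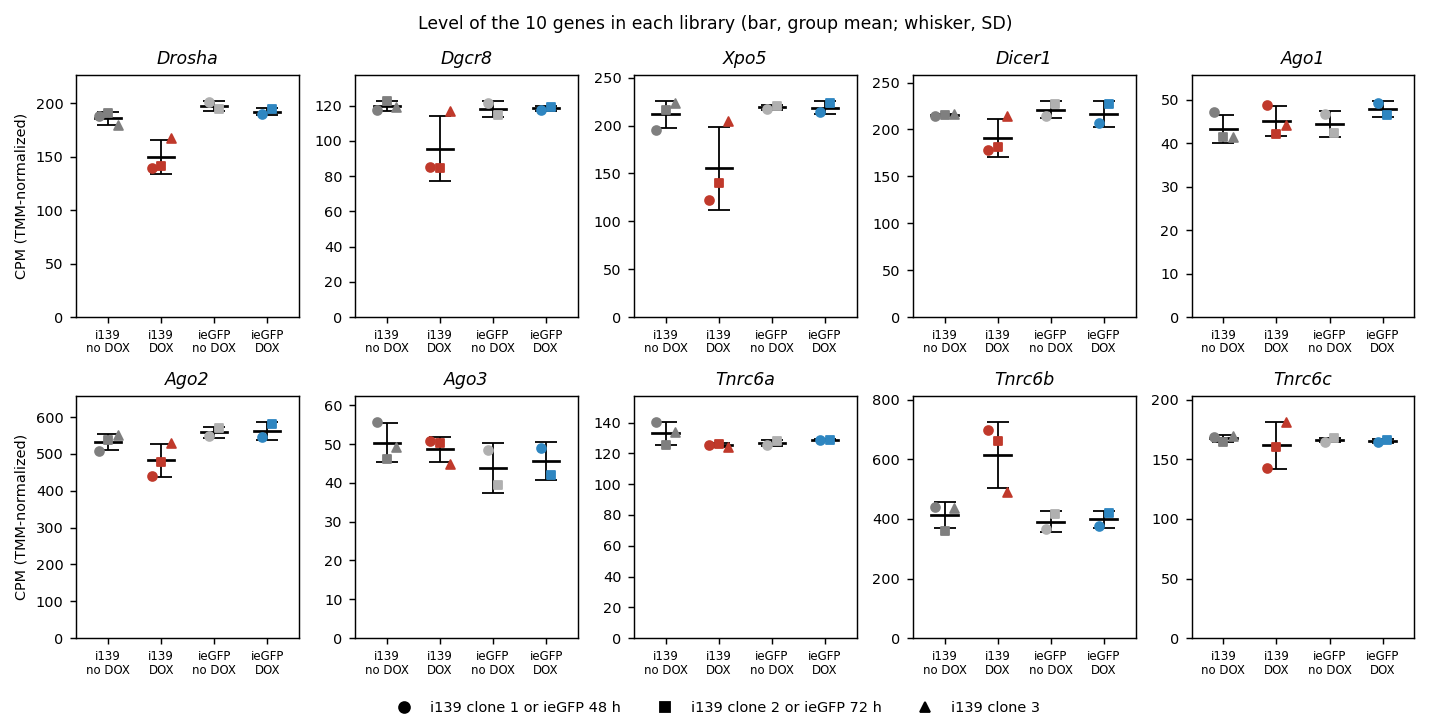
Level in CPM of each of the 10 genes in each of the 10 libraries, by group. Points are libraries, bars are group means and whiskers are SD. DOX-treated i139 clones 1 and 2 lie below all other libraries for Drosha, Dgcr8, Xpo5, Dicer1, Ago2 and, narrowly for clone 2, Tnrc6c. They lie above all others for Tnrc6b, and DOX-treated clone 3 lies close to the untreated libraries for Dgcr8 and Dicer1.

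Of the Microprocessor genes, Drosha (ENSMUSG00000022191), the nuclease, was measured at 188, 191 and 179 CPM in untreated clones 1, 2 and 3 and at 139, 141 and 168 CPM with DOX. The groups did not overlap, and clone 3 showed the smallest difference. The log2 fold change was -0.30 ± 0.10 (SE), a level 19.1% lower, with an adjusted p of 0.159 in edgeR and of 0.0706 with the block. Without clone 3 it was -0.42 ± 0.08 (edgeR, adjusted p = 0.0118).

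Dgcr8 (ENSMUSG00000022718), the RNA-binding subunit, was measured at 117.2, 122.8 and 119.3 CPM without DOX and at 84.9, 84.8 and 116.8 CPM with it. DOX-treated clones 1 and 2 were low and nearly equal, and clone 3 lay just below the untreated range, so the groups did not overlap. The log2 fold change was -0.32 ± 0.14 (SE, adjusted p = 0.238, and 0.0918 with the block, edgeR), and without clone 3 it was -0.48 ± 0.09 (adjusted p = 0.00732). Within a library, the log2 ratio of Drosha to Dgcr8 per kb of exon was 1.01 ± 0.05 (SD, n = 3) in untreated and 1.03 ± 0.12 in DOX-treated i139 cells, so the difference between the groups was smaller than the spread between clones. The sign of this ratio depends on the length used, since it was -1.01 and -0.99 per kb of whole gene body.

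Xpo5 (ENSMUSG00000067150), the exporter of the hairpin, had the lowest log2 fold change of the 10 genes. It was measured at 196, 216 and 224 CPM in untreated clones and at 122, 140 and 205 CPM with DOX. Clones 1 and 2 were low, while DOX-treated clone 3 lay above untreated clone 1, so the groups overlapped. The log2 fold change was -0.43 ± 0.18 (SE, adjusted p = 0.228, edgeR), and -0.47 ± 0.12 with the clone as a block, where it passed (adjusted p = 0.0460). Without clone 3 it was -0.64 ± 0.10 (adjusted p = 0.00483), a level 35.7% lower.

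Dicer1 (ENSMUSG00000041415), the cytoplasmic nuclease, was measured at 215, 216 and 216 CPM without DOX and at 178, 181 and 214 CPM with DOX. The untreated clones were nearly identical, clones 1 and 2 with DOX were lower, and clone 3 lay just under the untreated values, so the groups did not overlap. The log2 fold change of -0.16 ± 0.10 (SE) did not pass (adjusted p = 0.384, and 0.219 with the block, edgeR), nor did it without clone 3 (-0.24 ± 0.08, adjusted p = 0.0795). With both the block and clone 3 left out, it passed (adjusted p = 0.00182), as did Ago2 (adjusted p = 0.0355), in a fit of 2 clones that called 43.4% of all genes.

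Of the Argonaute genes, Ago2 (ENSMUSG00000036698) was measured at 507, 538 and 551 CPM in untreated clones and at 440, 479 and 529 CPM with DOX. Each clone was lower with DOX than without, by 0.20, 0.17 and 0.06 on the log2 scale, and the groups overlapped because DOX-treated clone 3 lay above untreated clone 1. The log2 fold change was -0.13 ± 0.10 (SE, adjusted p = 0.504, edgeR). Ago1 (ENSMUSG00000041530) was measured at 47.1, 41.6 and 41.5 CPM without DOX and at 48.9, 42.2 and 44.1 CPM with it, and Ago3 (ENSMUSG00000028842) at 55.8, 46.0 and 49.2 CPM and at 50.7, 50.2 and 45.0 CPM. Their log2 fold changes were 0.07 ± 0.11 and -0.04 ± 0.11 (SE, adjusted p = 0.771 and 0.891, edgeR), with 95% confidence intervals of -0.19 to 0.32 and -0.30 to 0.23. Ago1 was slightly higher with DOX in all 3 clones, while Ago3 was higher in clone 2 and lower in clones 1 and 3.

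The 3 scaffold genes did not move together. Tnrc6b (ENSMUSG00000047888) was measured at 441, 361 and 435 CPM in untreated clones and at 697, 661 and 489 CPM with DOX. All 3 DOX-treated libraries lay above all untreated ones, with clone 3 closest to them. The log2 fold change was 0.59 ± 0.15 (SE), a level 1.51 times that of untreated cells, with an adjusted p of 0.119 in edgeR, of 0.0400 with the block and of 0.0189 in DESeq2. Without clone 3 it was 0.78 ± 0.12 (edgeR, adjusted p = 0.00343). Tnrc6a (ENSMUSG00000052707) was measured at 140, 125 and 134 CPM without DOX and at 126, 126 and 124 CPM with it, a log2 fold change of -0.07 ± 0.09 (SE, adjusted p = 0.672, edgeR), and the groups overlapped. Tnrc6c (ENSMUSG00000025571) was measured at 169, 164 and 170 CPM and at 143, 161 and 182 CPM, and its log2 fold change was -0.04 ± 0.11 (SE, adjusted p = 0.867, edgeR). DOX-treated clone 1 was the lowest and DOX-treated clone 3 the highest of the 6 values of Tnrc6c.

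Over the 10 genes, the groups with and without DOX did not overlap for 4, against 24.9% of all genes: Drosha, Dgcr8 and Dicer1 lower (12.8% of all genes) and Tnrc6b higher (12%). The 3 clones went the same way for 7 of 10, against 53.7% of all genes. Clone 3 showed the smallest change of the 3 clones for 6 of 10, against 56.7% of all genes. Clone 3 was also the clone treated for 72 h, so clone and time cannot be told apart.

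**Figure D3:**
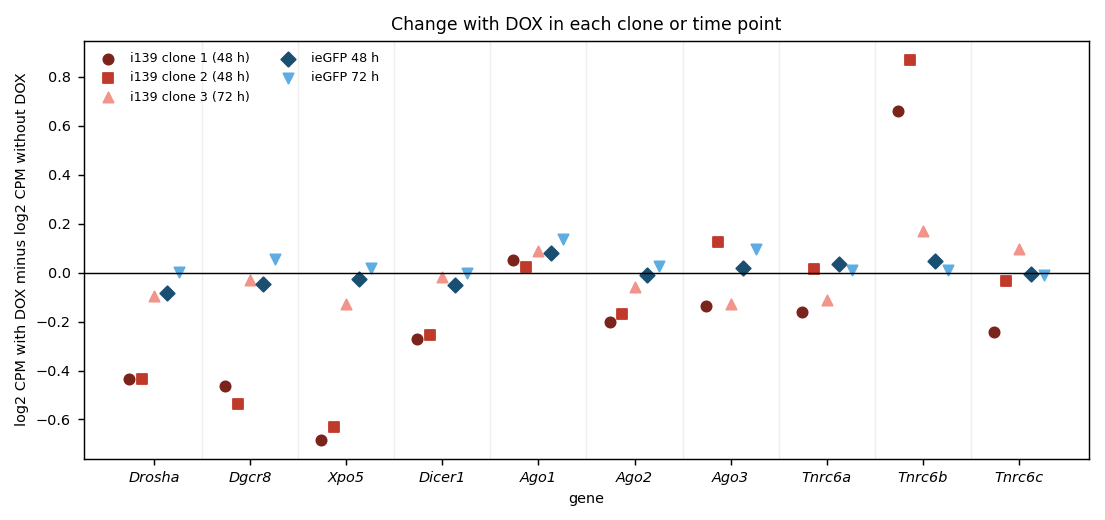
Log2 CPM with DOX minus log2 CPM without DOX for each gene, in each i139 clone and at each time point of ieGFP. For Xpo5 clones 1 and 2 lie at -0.68 and -0.63 and clone 3 at -0.13, and for Tnrc6b at 0.66, 0.87 and 0.17, while the ieGFP points lie between -0.08 and 0.14 for all 10 genes.

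In the MLL-AF9-ieGFP clone DOX left the 10 genes within 0.11 of their untreated level on the log2 scale. None of the 10 passed edgeR's test in a fit of the 4 groups over all 10 libraries (adjusted p = 1 for each), where 0% of 20269 genes passed. At an unadjusted p under 0.05 there were also 0 of 10, against 1.28% of all genes, and DESeq2 called 0 of 10, against 0.00494%. Tnrc6b was at 366 and 415 CPM at 48 h and 72 h without DOX and at 378 and 419 CPM with it. Xpo5 was at 217 and 221 CPM without and at 214 and 223 CPM with DOX, and Drosha at 201 and 194 CPM and at 190 and 195 CPM. All 6 of the DOX values lie within the range of the 5 untreated libraries. The 95% confidence interval of the change was -0.34 to 0.39 for Tnrc6b and -0.43 to 0.42 for Xpo5, which are wide next to the i139 values.

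The change with DOX in i139 cells minus that in ieGFP cells was tested as an interaction in the same fit. It was 0.55 ± 0.21 for Tnrc6b (SE, log2 scale, unadjusted p = 0.0259, adjusted p = 0.527, edgeR), -0.44 ± 0.25 for Xpo5, -0.33 ± 0.19 for Dgcr8 and -0.28 ± 0.14 for Drosha. None of the 10 passed, where 0.00493% of 20269 genes did, and DESeq2 called 0 of 10, against 0.604%. Tnrc6b was the only one of the 10 with an unadjusted p under 0.05, against 9.17% of all genes. Without i139 clone 3, Tnrc6b (0.76 ± 0.16, adjusted p = 0.0117), Xpo5 (-0.62 ± 0.13, adjusted p = 0.0121) and Dgcr8 (-0.47 ± 0.11, adjusted p = 0.0229) passed, that is 3 of 10 against 10.2% of all genes. Both arms are compared with their own untreated cells, and ieGFP rests on 1 clone.

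At rest, none of the 10 genes passed the test between untreated i139 and untreated ieGFP cells. The log2 difference, i139 minus ieGFP, ranged from -0.09 (Drosha) to 0.20 (Ago3), with adjusted p = 1 for each in edgeR, where 0.0444% of 20269 genes passed. At an unadjusted p under 0.05 there were 0 of 10 against 2.48% of all genes, and DESeq2 called 0 of 10, against 0.251%. Drosha averaged 186 ± 6.12 CPM (SD, n = 3) in i139 and 198 ± 4.79 CPM (SD, n = 2) in ieGFP (unadjusted p = 0.390, edgeR). Ago3 averaged 50.3 ± 4.97 CPM (SD, n = 3) in i139 and 43.9 ± 6.37 CPM (SD, n = 2) in ieGFP, with a 95% confidence interval of the log2 difference of -0.09 to 0.49. As ieGFP is 1 clone, construct and clone cannot be told apart.

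The make-up of each family was computed within a library, where no scaling between libraries enters, and is given as a description. Ago2 made up 82.3% ± 1.68 (SD, n = 5) of the reads per kb of exon of Ago1, Ago2 and Ago3 in untreated cells, Ago1 11.5% and Ago3 6.15%. With DOX the Ago2 share in i139 was 77.6%, 80.6% and 82.2% in clones 1, 2 and 3, against 79.7%, 82.9% and 82.9% without. It was lower in each clone, by less than the spread between libraries in clone 3. Counting Ago4 in the sum gave 80.2% in untreated cells. In the Tnrc6 family, Tnrc6b made up 43.5%, 40.3% and 43.6% of the reads per kb of exon in untreated clones 1, 2 and 3 and 58.4%, 55.4% and 46.4% with DOX. The Tnrc6a share went from 25.6% ± 0.510 (SD, n = 3) to 20.4% ± 1.29, with no overlap between the groups. A share also falls where another gene in the sum rises, and the CPM of Tnrc6a itself overlapped between the groups. The Tnrc6c share was 30.7%, 33.8% and 31.4% without DOX and 22%, 24.8% and 31.7% with it. In ieGFP the Tnrc6b share was 40.5% and 43.1% without DOX and 41.1% and 43.4% with it. Which of the 3 scaffold genes has the largest share depends on the length used: per kb of gene body in no other gene, Tnrc6a made up 60.8% of the family in untreated cells.

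**Figure D4:**
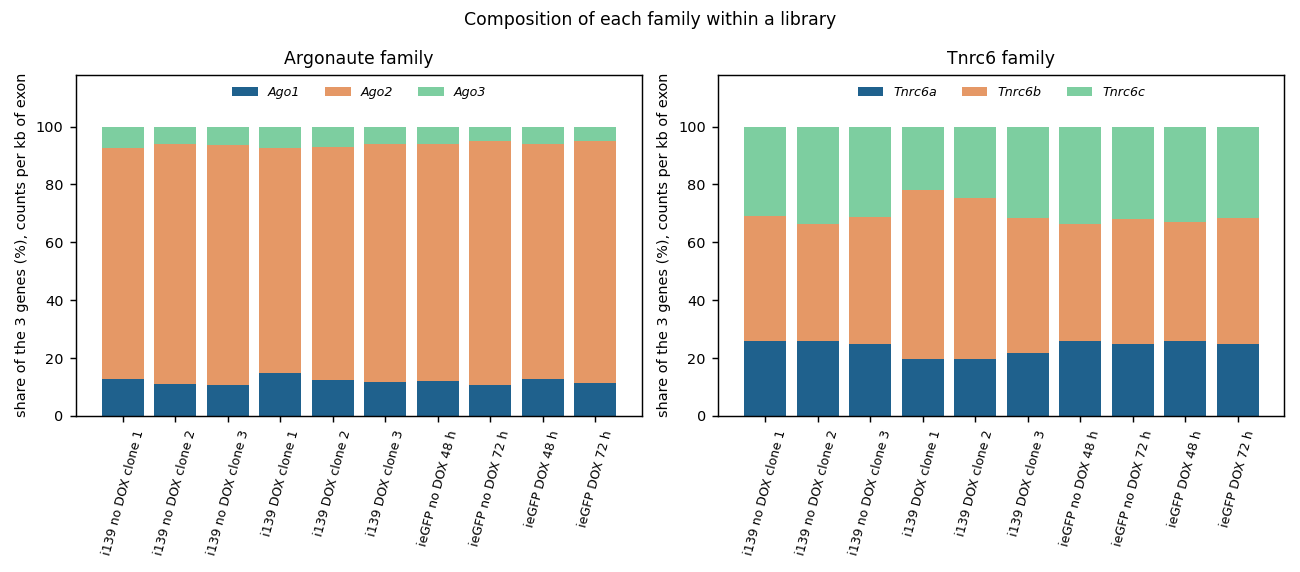
Share in percent of each gene within the Argonaute family (left) and the Tnrc6 family (right) in each library, from counts per kilobase of exon. Ago2 makes up 77.6% to 84.2% of the Argonaute bars, and the Tnrc6b segment reaches 58.4% and 55.4% in DOX-treated i139 clones 1 and 2.

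The machinery genes were also read as possible targets of the induced miRNA. A site was a match in the longest annotated 3′ UTR to the seed of the 5p arm (ACTGTAG, or CTGTAGA with an A opposite base 1) or of the 3p arm (CGTCTCC, or GTCTCCA), on the transcribed strand only. For the 5p arm 4 of 10 genes held one (Ago3, Dgcr8, Tnrc6a, Tnrc6b), against 21.6% of 14438 genes with counts and a 3′ UTR. For the 3p arm it was 5 of 10 (Ago1, Ago2, Ago3, Dgcr8, Tnrc6b), against 15.9%. The 3′ UTRs of the 10 genes are long, with a median of 3220 bases against 1091 for all those genes. None held the full match of 8 bases to either arm. Drosha, Xpo5, Dicer1 and Tnrc6c held no match of 7 bases, so of the 3 genes that passed as lower without clone 3, only Dgcr8 held a site. The sites of Tnrc6b, the gene that stood higher, and the 5p sites of Tnrc6a and Dgcr8 are shown with the matching bases in capitals, on the transcribed strand of GRCm38.
Tnrc6b, 5p arm, chr15:80936897-80936922: ggcccagcggattccACTGTAGtcag
Tnrc6b, 3p arm, chr15:80932675-80932700: aatgtaaaaagaaaaGTCTCCAaacg
Tnrc6b, 3p arm, chr15:80932917-80932942: atgaggctggactgaCGTCTCCccgt
Tnrc6a, 5p arm, chr7:123194728-123194753: gtgagaacagtgggaACTGTAGcttg
Dgcr8, 5p arm, chr16:18255258-18255283: gaagctgatagacagCTGTAGAtcct
Dgcr8, 5p arm, chr16:18255038-18255063: tgcaggtatcctgtcCTGTAGAatta
Tnrc6b held a match to each arm and was higher with DOX, and Dgcr8 held a match to each arm and was lower. Tnrc6a held a match and its groups overlapped, and Xpo5 held none and was lower. An effect of these matches on the levels was not tested. A match is a description of letters in this window and not a shown site of action.

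Around the 10 genes, 68 partner genes in 6 lists were followed, of which 65 passed the filter of 10 counts. In i139 cells 0 of 65 passed edgeR's test without the block, with 22 at an unadjusted p under 0.05, against 0.0624% and 20.6% of all genes. With the clone as a block 17 passed, 3 higher and 14 lower, against 12.4% of all genes, and DESeq2 called 9 without it, against 12.1%. The median change of the 65 was -0.11 on the log2 scale, against 0.01 for all genes. No partner gene passed in ieGFP cells, with 0 also at an unadjusted p under 0.05, against 0% and 1.28% of all genes.

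By role, the list with the lowest median held the Argonaute partners, among them the chaperones that help to load it. In this list of 11, the median was -0.44, and with the block 6 fell and 1 rose, against 5.33% and 7.05% of all genes. Hsp90aa1, a chaperone needed to open Argonaute for the duplex, was measured at 1334, 1331 and 1413 CPM without DOX and at 811, 817 and 964 CPM with it, a log2 fold change of -0.64 ± 0.11 (SE, adjusted p = 0.0845, and 0.0148 with the block, edgeR). All 3 clones were lower and the groups did not overlap, and ieGFP differed by -0.06. The co-chaperone gene Fkbp4 (-0.63 ± 0.14, adjusted p = 0.105), the chaperone gene Hspa8 (-0.60 ± 0.15, adjusted p = 0.114) and Fmr1 (-0.63 ± 0.15, adjusted p = 0.113), whose product binds mRNAs with Argonaute, were lower by about as much without passing, and passed with the block (adjusted p = 0.0261, 0.0215 and 0.0198, edgeR). Zswim8, a ubiquitin ligase receptor in target-directed miRNA decay, went the other way, from 40.8, 42.2 and 42.8 CPM to 70.4, 76.8 and 52.2 CPM, a log2 fold change of 0.68 ± 0.15 (SE, adjusted p = 0.100, and 0.0289 with the block, edgeR). Ago4, the least abundant Argonaute at 1.28 ± 0.169 CPM per kb of exon in untreated cells (SD, n = 5), was measured at 9.92, 10.1 and 7.40 CPM without DOX and at 15.5, 16.6 and 8.43 CPM with it (0.58 ± 0.27, adjusted p = 0.266, and 0.0528 with the block, edgeR).

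Of the 4 genes in the export and DICER1 list, 3 were lower and 1 higher with DOX, and with the block 2 fell and 1 rose, against 5.33% and 7.05% of all genes. Xpo1, another nuclear exporter, was measured at 424, 403 and 447 CPM without DOX and at 289, 281 and 378 CPM with it, with no overlap between the groups, and it passed with the block (-0.43 ± 0.09, adjusted p = 0.0311) and not without it (adjusted p = 0.142, edgeR). In ieGFP Xpo1 differed by -0.12 ± 0.14 (adjusted p = 1, edgeR), and the name of Xpo1 was added here after its values were seen. Ran, the GTPase that XPO5 needs for export, was measured at 476, 544 and 540 CPM without DOX and at 337, 366 and 491 CPM with it, and it passed with the block (-0.39 ± 0.10, adjusted p = 0.0474) and not without it (adjusted p = 0.211, edgeR). Prkra, which encodes a double-stranded RNA-binding partner of DICER1, was at 6.78, 6.82 and 6.49 CPM without DOX and at 10.0, 10.1 and 8.61 CPM with it (0.53 ± 0.16, adjusted p = 0.134, and 0.0420 with the block, edgeR). Prkra was also higher with DOX in ieGFP, by 0.27 ± 0.17 on the log2 scale (unadjusted p = 0.135), and the interaction was 0.25 ± 0.21 (adjusted p = 0.720, edgeR). Tarbp2, the other such partner, was at 21.1, 23.6 and 18.9 CPM and at 19.3, 22.8 and 17.96 CPM, with a log2 fold change of -0.07 ± 0.15 (SE, adjusted p = 0.826, edgeR).

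In the remaining lists, the nuclear partners of the Microprocessor (14 genes) had a median of -0.24, with 0 higher and 4 lower in the blocked fit, where 7.05% of all genes were higher and 5.33% lower. The tailing and turnover list (11 genes) had a median of -0.12, with 1 higher and 2 lower against those same shares. The gene that rose there was Tut7, a terminal uridylyltransferase that tails miRNA precursors, at 68.7, 66.0 and 67.4 CPM without DOX and 127, 116 and 75.8 CPM with it (0.67 ± 0.18, adjusted p = 0.121, and 0.0393 with the block, edgeR). The deadenylation and decay list, the complexes that TNRC6 recruits, had a median of -0.05 over 23 genes with 0 passing either fit. Cnot9 and Eif4enif1 of that list had 0 counts, and both gene bodies lie wholly inside another gene. Of the PIWI relatives, Piwil1 had 4 counts in all, and Piwil2 and Piwil4 stood below 1 CPM in every library.

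**Figure D5:**
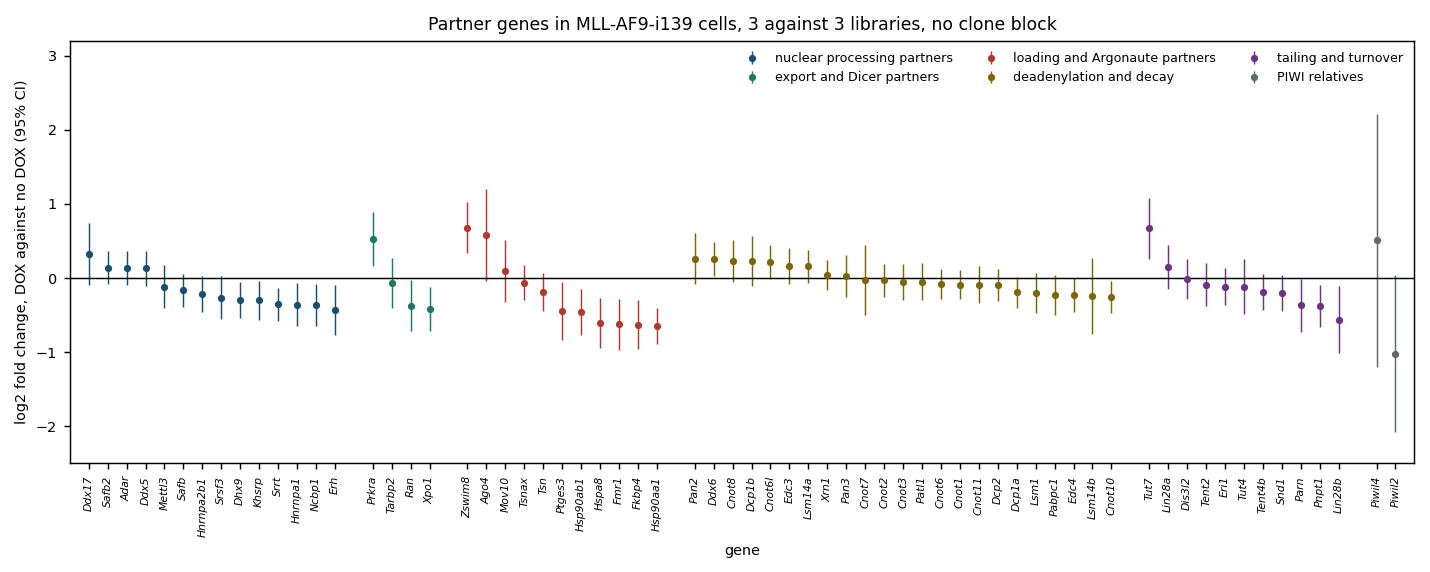
Log2 fold change of each partner gene with DOX against without DOX in i139 cells, with its 95% confidence interval from edgeR without a block, by list. The loading list spans from Zswim8 at 0.68 to Hsp90aa1 at -0.64, and the decay list lies within 0.27 of 0.

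As a description of which genes vary most like the machinery, the Pearson correlation of log2 CPM over the 10 libraries was ranked over 8376 genes with a mean of at least 10 CPM. The 10 points share clones and treatment, and a few DOX-treated libraries set most of the spread, so the values say which profiles look alike and no more. Ago2 was most like Rbm8a (0.996), Eif5a (0.991) and Abhd11 (0.991). Dicer1 was most like Ung (0.994), Pole3 (0.988) and Hnrnpab (0.988), and Drosha was most like Knop1 (0.994), Srm (0.993) and Mthfd1 (0.993). Among the 10 genes themselves, the closest pair was Dgcr8 and Xpo5 (0.969).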

How the data were processed

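The authors isolated total RNA, depleted ribosomal RNA, sequenced on a NovaSeq, mapped reads to GRCm38 with STAR (2.5.3e) and counted them per gene with featureCounts (1.6.0) and GENCODE genes. The counts were deposited without normalization in 2 tables, which differ in 0 values for these libraries. The strand setting is not given in the sources used here. Of the per-sample columns in the files, 14 belong to other samples and were not used. Gene lengths, overlaps and 3′ UTRs came from GENCODE as given here, a newer release of that build.

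Genes with at least 10 counts in total were tested with edgeR 4.0.16 (R 4.3.3, TMM, quasi-likelihood): DOX in i139 on its 6 libraries without a block, the other contrasts in a fit of 4 groups over 10 libraries. Log2 values of single clones used a prior count of 2. The same clone was sampled with and without DOX, and deviations of same-numbered libraries correlated at 0.381, 0.288 and 0.414, so clone numbers pair the samples and the blocked value is printed where it changed a call. In ieGFP the 2 time points stood in as the block. No 2 libraries of a group agreed within sampling noise (chi-square per degree of freedom at least 13.5). The alternatives were DESeq2 1.42.0, RLE factors, other filters, the block, all 10 libraries, and each clone or time point left out. The genes named are the 10 genes, 4 fixed partners, the 6 other partners of lowest p and the 3 genes most like each of 3 genes. Also named are markers, partners with few or no counts, and Xpo1, which was added after its values were seen. The genes and lists were chosen with earlier results of these data known. On simulated counts of 19223 genes, edgeR without the block recovered 73% of changes of 1 on the log2 scale and 97% of changes of 2 for DOX in i139. Of the genes called, 6.59% were false. The changes were set in genes of high mean count, without differences between clones. No change under 1 was simulated, so the recovery of the smaller changes seen in the 10 genes is not known.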

Additional observations from a re-analysis of the deposited data

How the results depend on the processing

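For DOX in i139 cells the number of the 10 genes that passed was 0, and it became 2 with the replicate block, 2 with the block in DESeq2, 1 in DESeq2, 1 in the fit of all 10 libraries, and 0 to 4 with a clone left out (0 to 6 with the block). The block with DESeq2 or with a clone left out, and the length outside other genes, were chosen after seeing the data. The number of partner genes was 0, and it became 17 with the replicate block, 9 in DESeq2, 9 in the fit of all 10 libraries, 4 with no filter and 0 to 25 with a clone left out. Over all genes 12 passed, against 2381 with the block, 1556 in DESeq2, 1234 in the fit of all 10 libraries, 562 with no filter and 2 with at least 10 counts in every library. The highest counts with a clone left out came without clone 3, and the cause was not tested. For the interaction the number of the 10 genes was 0, and 0 to 3 with a library left out, the 3 without i139 clone 3. The block changed no call among the 10 genes in ieGFP or in the interaction. No paired analysis was possible for untreated cells because the groups do not share clones.

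The make-up in untreated cells depended on the length. The Ago2 share of Argonaute reads was 77.2% per kb of whole gene body, 77.6% per kb outside other genes, 85.5% from counts without a length and 80.2% with Ago4 in the sum. The Tnrc6a share was 35.7%, 60.8% and 18.6% on the first 3 of these scales. The log2 ratio of Drosha to Dgcr8 was -0.97, -1.01 and 0.68.

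Signs turned for log2 values near 0. In i139, Ago3 ranged from -0.12 to 0.0073 and Tnrc6c from -0.12 to 0.035 with a clone left out, and they reached 0.011 and 0.033 with the block. With a library left out, the ranges that crossed 0 in ieGFP were -0.0055 to 0.013 for Ago2, -0.043 to 0.042 for Dgcr8, -0.020 to 0.0043 for Xpo5, -0.0027 to 0.042 for Tnrc6a, -0.0033 to 0.051 for Tnrc6b and -0.026 to 0.00057 for Tnrc6c. In the interaction it was -0.099 to 0.047 for Tnrc6c. Between untreated i139 and ieGFP cells they were -0.096 to 0.0017 for Ago1, -0.11 to 0.018 for Dicer1, -0.0079 to 0.039 for Dgcr8, -0.11 to 0.0076 for Xpo5, -0.047 to 0.18 for Tnrc6b and -0.035 to 0.035 for Tnrc6c. Dgcr8 in ieGFP was also -0.0029 in DESeq2, -0.0029 with RLE factors and -0.0042 with at least 10 counts in every library, and untreated Tnrc6c was -0.0014, -0.0014 and -0.0062.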
